A study of Mus musculus with 6 samples.

Results

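Retnla-low macrophages of the adult sciatic nerve were cells that carried transcripts of the complement gene C1q and little or no transcript of Retnla, which encodes the secreted protein resistin-like alpha. They were chosen from the counts of unique molecular identifiers (UMIs, 1 for each captured RNA molecule) in the libraries of postnatal day 60 (P60). A barcode with 500 to 5000 genes was kept, and it was a member when it had at least 5 UMIs of C1qa and C1qb together, at least 1 UMI of the leukocyte and macrophage genes Ptprc, Cd68 and Csf1r together, under 5 UMIs of Retnla, under 10 of the fibroblast gene Dcn, and 0 of the Schwann cell gene Sox10 and the endothelial gene Pecam1. These limits left 473 cells, 122, 133 and 218 in P60 replicates 1, 2 and 3, of 12602 kept P60 cells and of 24337 kept cells in all 6 libraries. They were set against 378 P60 cells with at least 5 C1qa and C1qb UMIs and at least 20 Retnla UMIs, called Retnla-high here (98, 139 and 141 cells), on which no other limit was placed.

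The nerves came from mice on the C57bl/6J background at P1 and P60. At both ages the mice carried P0Cre:ReYFP, in which Cre active in the Schwann cell lineage switches on a yellow reporter in Schwann cells, and βAct-DsRed, a red reporter expressed in every cell. For each age 3 suspensions were run separately on the 10x Chromium platform with the 3' kit v2, each pooled from male and female mice in equal numbers, so a library is a pool of animals and not 1 animal. DsRed-positive cells were sorted, and at P1 part of the cells with both reporters were removed. The mice received no treatment, and the sort did not separate nerve macrophages from leukocytes of the blood.

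Macrophages of a peripheral nerve live in different compartments. Endoneurial macrophages lie among the axons and their Schwann cells, inside the perineurial sheath, while epineurial macrophages lie in the outer connective tissue along with fibroblasts and vessels. Cx3cr1 encodes the receptor of fractalkine and is abundant in microglia of the brain and in endoneurial macrophages, and Trem2 encodes a lipid-sensing receptor of microglia and other tissue macrophages. Retnla is a textbook target of interleukin 4 and interleukin 13, which act through the transcription factor STAT6, and Lyve1, Folr2 and the Cd209 lectins are known from macrophages near vessels and in sheaths. The comparison asked whether Cx3cr1 and other genes of endoneurial macrophages marked the Retnla-low cells.

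The promoters of genes on which the comparison turned are given for their sequence, as the 250 bases before the start of the gene in RefSeq (build GRCm38.p6), from 5′ to 3′ on the strand of the gene. Retnla chooses the cells, Cx3cr1 is the gene asked about, and the 3 H2 genes encode chains of the MHC class II molecules, whose levels differed together below. In Retnla the capitals mark the STAT6-type motif, TTC and GAA with 4 bases of any kind between them, which reads alike on both strands, and in the other genes they mark the CCAAT box, searched on both strands. These letters were found in 5.85% and 33.8% of the 32851 promoter windows of the same length, so a match describes the sequence and is not shown to be a site.
Retnla, chr16:48842359-48842608, plus strand: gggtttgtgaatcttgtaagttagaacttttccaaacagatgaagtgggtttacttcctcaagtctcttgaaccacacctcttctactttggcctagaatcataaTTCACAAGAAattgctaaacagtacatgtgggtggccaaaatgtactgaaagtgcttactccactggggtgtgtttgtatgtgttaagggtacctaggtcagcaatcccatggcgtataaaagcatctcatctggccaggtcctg
H2-Aa, chr17:34287824-34288073, minus strand: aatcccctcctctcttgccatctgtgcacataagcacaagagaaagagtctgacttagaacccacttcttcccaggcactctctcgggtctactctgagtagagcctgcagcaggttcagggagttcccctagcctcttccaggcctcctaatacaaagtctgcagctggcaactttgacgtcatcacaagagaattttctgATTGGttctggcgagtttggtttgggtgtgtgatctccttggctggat
H2-Eb1, chr17:34305617-34305866, plus strand: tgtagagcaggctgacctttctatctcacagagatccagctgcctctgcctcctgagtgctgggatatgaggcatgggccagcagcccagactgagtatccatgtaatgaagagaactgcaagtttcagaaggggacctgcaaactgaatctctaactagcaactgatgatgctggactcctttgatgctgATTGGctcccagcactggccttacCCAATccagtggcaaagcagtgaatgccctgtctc
H2-DMb1, chr17:34152941-34153190, plus strand: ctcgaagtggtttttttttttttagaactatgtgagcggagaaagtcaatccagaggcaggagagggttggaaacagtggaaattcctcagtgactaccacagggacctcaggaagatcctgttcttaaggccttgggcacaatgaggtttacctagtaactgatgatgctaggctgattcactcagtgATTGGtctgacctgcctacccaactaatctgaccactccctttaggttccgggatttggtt
Cx3cr1, chr9:120068297-120068546, minus strand: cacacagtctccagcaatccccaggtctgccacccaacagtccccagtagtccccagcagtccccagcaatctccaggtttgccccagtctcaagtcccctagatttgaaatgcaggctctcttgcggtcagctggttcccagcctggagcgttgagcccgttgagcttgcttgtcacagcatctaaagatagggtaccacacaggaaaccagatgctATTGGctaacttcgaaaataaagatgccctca
The Retnla window held the STAT6-type motif once, 145 to 136 bases before the start, and no CCAAT. The STAT6-type motif was not found in the other 4 windows. CCAAT on the opposite strand lay 48 to 44 bases before the start in H2-Aa, 59 to 55 in H2-Eb1 and 61 to 57 in H2-DMb1, and 32 to 28 in Cx3cr1. H2-Eb1 held a further match on its own strand, 35 to 31 bases before the start. All these positions count from the RefSeq start. The GENCODE M21 spans of Retnla, H2-DMb1 and Cx3cr1 begin earlier. The windows of Retnla and H2-DMb1 thus lie partly inside those spans, and that of Cx3cr1 wholly.

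Retnla (ENSMUSG00000061100, chromosome 16, 48842551 to 48844461, GENCODE M21) split the cells that met all other limits into separate sets in every library. No Retnla UMI was found in 59, 76 and 171 cells, 63, 57 and 47 had 1 to 4, and 86, 117 and 129 had 20 or more. Between them lay 10, 12 and 12 cells with 5 to 19 UMIs, which entered neither group. Just inside the limit were 3, 6 and 11 cells with 3 or 4 UMIs, and just outside were 3, 4 and 8 cells with 5 to 9. Members held 179.9, 194 and 95.9 CPM of Retnla (counts per 1000000 UMIs of the summed cells), and Retnla-high cells 42419.5, 40323 and 36886. P60 fibroblasts, taken as cells with at least 10 Dcn UMIs and no C1q, held 179, 143 and 64.3 CPM, so in replicate 1 the members were near the level found in cells of another type, and in replicates 2 and 3 above it. As the Retnla, C1q, Ptprc, Cd68, Csf1r, Dcn, Sox10 and Pecam1 counts chose the cells, they are descriptions and were not tested.

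**Figure D1:**
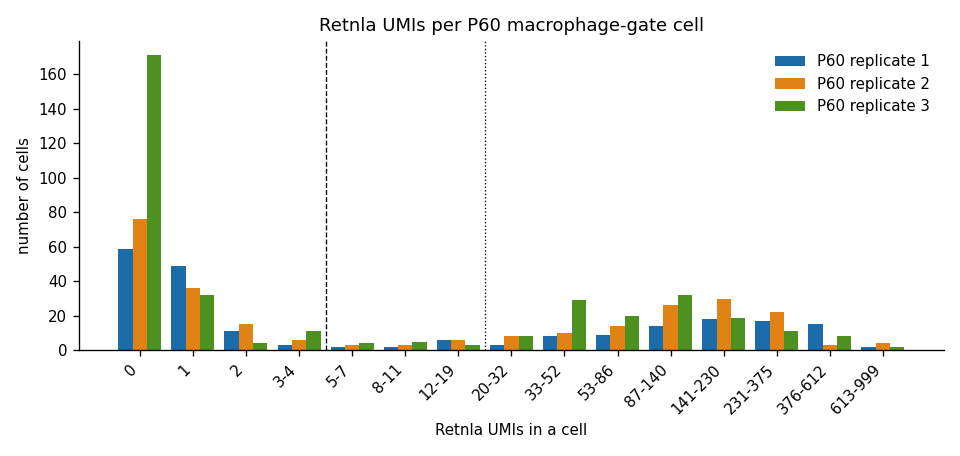
Number of P60 cells (y axis) by their Retnla UMIs (x axis, in classes that widen to the right) among cells that met all limits other than those on Retnla, with 1 bar colour per library; the dashed line marks the limit of 5 UMIs and the dotted line that of 20 UMIs. In each library most cells lay below the dashed line or right of the dotted line, with 10, 12 and 12 cells between them.

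Macrophage genes were found in the members, in part through the choice of cells. C1qa was at 7018, 7307 and 4586 CPM and Csf1r, the receptor of the growth factor CSF1, at 1246, 1136 and 1120.0. Both genes were part of the limits, so these levels only describe the cells chosen. Trem2 and Cx3cr1, which the limits did not use, were found in 50% to 56.6% and in 39.1% to 59.2% of the members of a library at full depth. Summed markers of other leukocytes were low, with 2.22 to 2.40 CPM over 6 T and NK cell genes (Cd3e, Cd3g and Gzma at 0) and 18.3 to 24.0 CPM over 5 neutrophil genes (Ly6g at 0). Of the B cell genes Cd79b had UMIs, and Cd79a and Ms4a1 were at 0. Members made up 3.55%, 2.90% and 4.76% of the kept P60 cells (exact 95% intervals 2.96% to 4.23%, 2.43% to 3.43% and 4.16% to 5.42%, counting error only), a mean of 3.74% ± 0.943 (SD, n = 3 libraries). Among members and Retnla-high cells together, 55.5%, 48.9% and 60.7% were Retnla-low. These are shares of the cells recovered after dissociation and sorting.

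P60 replicate 3 stood apart. More than 10% of the UMIs were mitochondrial in 16.2% of its kept cells, against 2.97% and 4.84% in replicates 1 and 2, and it held 218 of the 473 members. The members had a median of 3365, 3154 and 3865 UMIs, and Retnla-high cells had 5057, 3823 and 3422, so their order differed between libraries, and shares of cells with a UMI are compared after each cell was thinned to 1500 UMIs (4 members and 1 Retnla-high cell of replicate 3 were shallower and left out). Libraries of P60 shared 27 to 29 barcodes with each other, and 1 of those shared by replicates 1 and 3 was a member in both. Markers of other cell types of the nerve were present in both groups. Their summed levels were 1059 to 1655 CPM in Retnla-low and 1644 to 3790 CPM in Retnla-high cells for 8 fibroblast genes, 325 to 466 and 247 to 1219 CPM for 6 Schwann cell genes, 89.9 to 180 and 92.6 to 664 CPM for 6 endothelial genes, and 75.5 to 228 and 106 to 328 CPM for 5 mural genes. These sums include Dcn, Sox10 and Pecam1, whose limits were placed on Retnla-low cells only. Part of the fibroblast, Schwann cell and endothelial differences was thus set by the choice of cells. Dcn alone was at 446, 351 and 270 CPM in Retnla-low and 1099, 1218 and 548 CPM in Retnla-high cells. No T cell, neutrophil, mast cell or erythroid marker was abundant enough to test between these groups.

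Among C1q-positive cells of the adult nerve, Cx3cr1 was found mainly in those low in Retnla. Its summed level was 293, 221 and 402 CPM in the Retnla-low cells of replicates 1, 2 and 3 and 14.8, 13.01 and 57.9 CPM in Retnla-high cells. The lowest Retnla-low library lay well above the highest Retnla-high one, and of all 5550 genes tested 27.1% did not overlap between the groups (log2 change of 3.51 with an SE of 0.23, edgeR adjusted p = 1.5e-08). Cx3cr1 (ENSMUSG00000052336) lies on chromosome 9, 119901616 to 120069879, on the minus strand, where Csrnp1, Gorasp1 and Xirp1 overlap it on the same strand. In fibroblasts, which should lack it, it was at 0.615, 0.628 and 0.379 CPM.

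Counted by cell after thinning, a Cx3cr1 UMI was found in 31.1%, 24.8% and 36.4% of Retnla-low cells, a mean of 30.8% ± 5.83 (SD, n = 3 libraries). The share was 0% (0 of 98 cells, exact 95% interval up to 3.69%), 2.88% and 3.57% of Retnla-high cells, and 0.109%, 0.159% and 0.183% of fibroblasts. The difference of 28.7 percentage points had the same direction in 3 of 3 libraries (exact paired permutation test, two-sided p = 0.25, the smallest that 3 pairs allow). Without thinning the shares were 54.1%, 39.1% and 59.2% against 7.14%, 4.32% and 10.6%, so at 1500 UMIs per cell most members held no Cx3cr1 UMI. A Trem2 UMI was found after thinning in 32.8%, 38.3% and 25.2% of Retnla-low and 16.3%, 15.1% and 12.1% of Retnla-high cells, higher in the former in each library.

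Along the Retnla count the Cx3cr1 share dropped between the classes of 1 to 4 and 5 to 19 UMIs. It was 28.8%, 21.1% and 37.3% of cells without a Retnla UMI and 33.3%, 29.8% and 33.3% of those with 1 to 4. With 5 to 19 Retnla UMIs it was 10.0%, 8.33% and 8.33%, of 10, 12 and 12 cells, and with 100 or more it was 0%, 1.25% and 0%. Lyve1, a hyaluronan receptor, went the other way, from 15.3%, 25.0% and 36.1% of cells without a Retnla UMI to 67.2%, 58.8% and 60.9% of cells with 100 or more. Cd163, a haemoglobin scavenger receptor, showed no such order, with 33.9%, 34.2% and 62.7% at 0 Retnla UMIs and 40.6%, 43.8% and 50% at 100 or more. Between the neighbouring classes of 0 and of 1 to 4 Retnla UMIs the Cx3cr1 share had no common order in the 3 libraries.

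**Figure D2:**
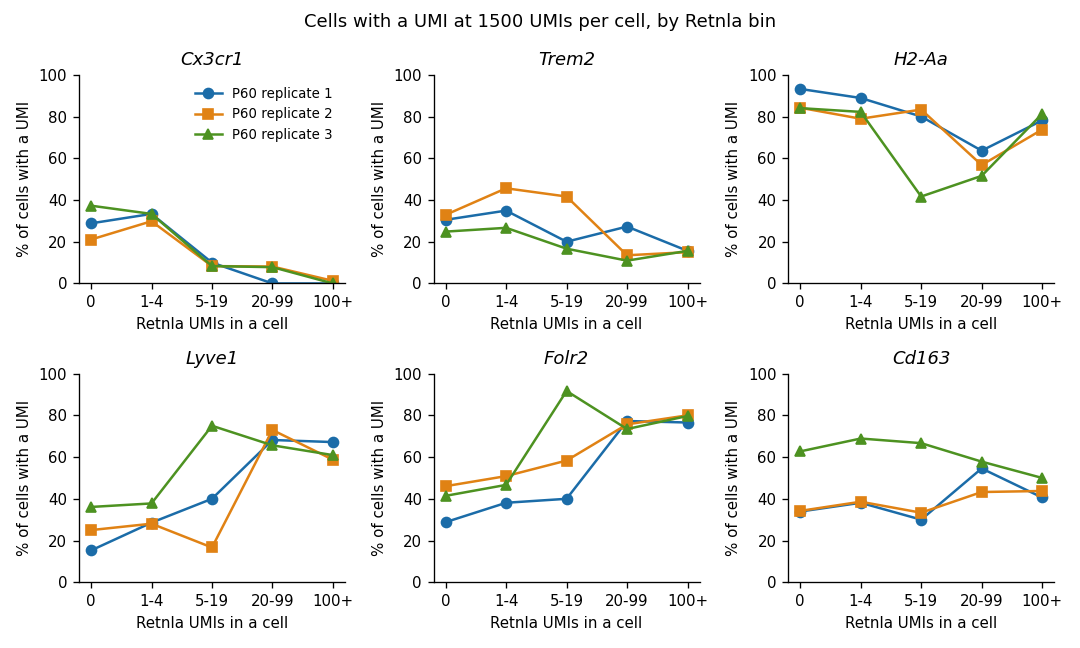
Share of P60 cells with a UMI of each of 6 genes (y axis, %, after thinning to 1500 UMIs) by the Retnla UMIs of the cell (x axis), with 1 line per library. Cx3cr1 falls from 21.1% to 37.3% at 0 Retnla UMIs to 0% to 1.25% at 100 or more, while Lyve1 and Folr2 rise and Cd163 has no common order.

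Across all genes the Retnla-low and Retnla-high cells differed broadly. Summed counts of the 2 groups in each library were compared with edgeR (quasi-likelihood test, library as block), and 1055 of 5550 genes tested were called at an adjusted p under 0.05, 534 higher in Retnla-low cells (9.62%) and 521 lower (9.39%). Without replicate 1 the count was 487 and without replicate 2 it was 414. Without the block 441 were called and with DESeq2 344, all of them among the 1055 and in the same direction. Of the Schwann cell markers 0 of 3 tested were higher in Retnla-low cells and 1 lower, of the endothelial markers 1 of 3 higher and 2 lower, and of the 2 mural markers tested neither was called. Both groups were defined by counts in the same cells. A call rests on the mean difference over the libraries, and in some called genes 1 library went the other way. The median log2 change over all genes tested was 0.00, beside which the medians of the gene lists are given.

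Of the list of endoneurial and microglia-like genes, 11 of 15 tested were called higher in Retnla-low cells, 1 was called lower and 3 were not called. The median log2 change was 1.03. The list had 18 genes, of which Tmem119, Sall1 and Slc2a5 were too low to test, and Sall1 and Slc2a5 had no UMI in any member. The counts higher and lower were 7 and 0 without replicate 1, 6 and 0 without replicate 2, 11 and 1 without replicate 3, and 7 and 0 with DESeq2 or without the block.

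Trem2 was at 298, 324 and 297 CPM in Retnla-low cells and 98.1, 101 and 100.3 in Retnla-high cells (log2 change of 1.66 with an SE of 0.15, edgeR adjusted p = 4.3e-07). Both groups of Trem2 values were tight, and the gene remained detectable in Retnla-high cells. Gpr34, a lysophosphatidylserine receptor, was at 198, 173 and 165 against 74.0, 107 and 106 CPM (log2 change of 0.93 with an SE of 0.18, edgeR adjusted p = 0.0012).

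Mef2c, a transcription factor, was at 617, 596 and 666 against 218, 317 and 380.1 CPM (log2 change 1.10). The purinergic receptor P2ry13 changed by 1.45 on the log2 scale, the transforming growth factor receptor Tgfbr1 by 1.87, the sialic acid lectin Siglech by 1.03, the tetraspanin Cd81 by 0.70 and the signalling regulator Rgs10 by 0.44, all called higher. Fcrls, an Fc receptor-like gene of microglia, passed narrowly at a log2 change of 0.37 (edgeR adjusted p = 0.047), and missed it under 9 of 14 other settings, without replicate 1 (0.42) and without replicate 2 (0.24) among them. P2ry13, Siglech and Rgs10 were likewise not called without replicate 1 (1.05, 0.68 and 0.46) or without replicate 2 (1.55, 1.12 and 0.36), nor Tgfbr1 without replicate 2 (1.36). With cells thinned to 1500 UMIs Siglech was at 0.18 and not called (edgeR adjusted p = 0.76). Not every microglial gene followed Cx3cr1. P2ry12, the best known of them, was at 84.4, 91.3 and 46.8 against 51.8, 71.5 and 61.7 CPM, and the groups overlapped (log2 change 0.26, edgeR adjusted p = 0.47). Selplg (log2 change 0.25, edgeR adjusted p = 0.31) also missed the threshold. Olfml3 missed it narrowly (log2 change 1.16, edgeR adjusted p = 0.052) and was called higher under 4 other settings, at 1.56 when Retnla-high cells met the same limits as members and 1.47 for members without a Retnla UMI (edgeR adjusted p = 0.015 and 0.0088).

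Sparc, an extracellular matrix protein, was the member of that list called lower, at 235, 361 and 145 against 812, 548 and 149 CPM. Fibroblasts held 7330.1, 7385 and 5733 CPM of it, and the limit on Dcn was placed on Retnla-low cells only. When Retnla-high cells met the same limits (86, 117 and 129 cells), Sparc turned to a log2 change of 0.23 (edgeR adjusted p = 0.34) and 1027 genes were called in all. In the main comparison Sparc was not called without replicate 1 (-0.30) or without replicate 2 (-0.97). Of the fibroblast markers, 4 of 6 tested were called lower and 1 higher in the main comparison, and 0 lower and 1 higher under the same limits. Col3a1, a fibrillar collagen, changed from -1.15 to -0.11 between them, while Cx3cr1 stayed at 3.37 and Lyve1 at -1.25 under the same limits.

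Chemokine genes separated the groups in both directions. Of 17 tested in the list of chemokines and receptors, 9 were called higher in Retnla-low cells and 6 lower, with a median log2 change of 0.81. Ccl3 and Ccl4, inflammatory chemokines of macrophages, were both higher. Ccl3 was at 1077, 931 and 970.1 CPM in Retnla-low and 49.96, 24.4 and 55.9 in Retnla-high cells (log2 change of 4.58 with an SE of 0.18, edgeR adjusted p = 8.8e-11). Ccl4 was at 1444, 815 and 1041 against 117, 43.9 and 96.5 CPM (log2 change of 3.75 with an SE of 0.16, edgeR adjusted p = 8.8e-11). For neither gene did the groups overlap, as for 27.1% of all genes tested.

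Ccl12, a monocyte-attracting chemokine, was at 768, 616 and 1182 against 3.70, 42.3 and 102 CPM (log2 change of 4.24 with an SE of 0.30, edgeR adjusted p = 2.6e-08). The neutrophil-attracting chemokines Cxcl1 and Cxcl2 changed by 3.10 and 2.29, Cxcl16 by 2.28 and Ccl2 by 0.81. Tnf, the inflammatory cytokine, was at 91.1, 103 and 119 against 16.7, 19.5 and 17.4 CPM (log2 change of 2.57 with an SE of 0.24, edgeR adjusted p = 8.2e-07). Among members Cxcl1 was at 222 CPM in the 195 cells of subgroup 0 below and 24.0 CPM in the others. Cxcl2 was at 3498 against 614 CPM and Tnf at 194.6 against 38.6 CPM. In the opposite direction Ccl6 was at 1823, 2061 and 1423 against 6839, 6152 and 4329 CPM (log2 change -1.65), and Ccl24, Ccl8, Ccl9 and the receptors Ccr1 and Ccr2 were lower, with log2 changes of -1.85, -1.79, -0.98, -1.19 and -0.68. Ccl21a, made by lymphatic vessels, was among the 12 largest rises but rested on replicate 1, at 239.9, 27.4 and 26.4 against 25.9, 6.503 and 11.6 CPM, and was no longer called without that library (log2 change 1.61, edgeR adjusted p = 0.076). Ccr2 was not called without replicate 2 (-0.69). Among members Ccl21a stood at 2647 CPM in 9 cells with markers of several cell types (subgroup 5 below) and at 25.6 CPM in the others. Of these 9 cells 22.2% had a Ccl21a UMI. Ccl21a also has near-identical gene copies.

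Genes of the response to dissociation were higher in the same cells. These immediate early and heat shock genes are induced while tissue is digested, and 14 of 17 were called higher in Retnla-low cells and 0 lower, with a median log2 change of 1.14. Their summed level was 23159.6 to 34719 CPM in Retnla-low and 8624 to 17622 CPM in Retnla-high cells. Jun was at 3602, 3183 and 4323 against 814, 637 and 1567 CPM (log2 change of 2.01 with an SE of 0.13, edgeR adjusted p = 1.4e-08), and Fos at 6458, 5098 and 7517 against 1765, 1694 and 3471 CPM (log2 change of 1.56 with an SE of 0.11, edgeR adjusted p = 3.6e-08). Atf3 (584, 717 and 1439 against 207, 208 and 650.2 CPM) and Egr1 (986, 858 and 1769.9 against 355, 353 and 959 CPM) were highest in replicate 3 in both groups, so the groups overlapped across libraries and differed within each. Without replicate 3, 15 were called higher, and without the block 7. The part of this response in the chemokine result was not tested.

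Genes of epineurial and perivascular macrophages were lower in the Retnla-low cells. Of 20 tested, 14 were called lower and 1 higher, with a median log2 change of -0.98. Folr2, a folate receptor, was at 551, 687 and 553 against 1756, 1637 and 1468 CPM (log2 change of -1.40 with an SE of 0.11, edgeR adjusted p = 1.3e-07), and Lyve1 at 358, 363 and 494 against 916, 824 and 934 CPM (log2 change of -1.10 with an SE of 0.12, edgeR adjusted p = 6.4e-06). Clec10a, a galactose lectin, was at 244, 251 and 287 against 627, 631 and 864 CPM (log2 change -1.39). In each of the 3 genes every Retnla-low library lay below every Retnla-high one, and 27.1% of all genes tested did not overlap between the groups.

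Among the lectins of the Cd209 family, Cd209f was at 91.1, 187 and 269.8 against 1747, 1393 and 1418 CPM (log2 change of -3.01 with an SE of 0.22, edgeR adjusted p = 5.4e-08). Cd209g changed by -3.19 and Cd209d by -2.53; reads of these close paralogs may have been split between them. Fcna, a ficolin of the lectin complement pathway, was at 82.2, 173 and 149 against 1139.9, 951 and 862 CPM (log2 change -2.81). Timd4, a receptor for dying cells, and F13a1, a coagulation factor subunit, changed by -0.86 and -0.71, the first not called without replicate 1 (-0.56). The 3 scavenger and chemokine genes Cd163, Mrc1 and Pf4, which are also used as markers of these macrophages, were not called, with log2 changes of -0.10, -0.22 and -0.16. When Retnla-high cells met the same limits as members, Mrc1 and Pf4 were called lower, at -0.35 and -0.29 (edgeR adjusted p = 0.017 and 0.011), and Pf4 was also lower after thinning (-0.32). Mgl2, a lectin encoded beside Clec10a in mouse, went the other way, at 1699, 1563 and 1345 against 1086, 867 and 972 CPM (log2 change of 0.70 with an SE of 0.11, edgeR adjusted p = 1.7e-04).

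Most MHC class II genes, which present antigen to T helper cells, were higher in Retnla-low cells. Of 8 tested, 5 were called higher and 1 lower, with a median log2 change of 0.67. H2-Aa was at 9803, 8388 and 7527 against 5568, 4668 and 4873 CPM (log2 change of 0.81 with an SE of 0.08, edgeR adjusted p = 1.3e-06). H2-Ab1 and H2-Eb1, the other classical chains, changed by 0.73 and 0.91, the invariant chain Cd74 by 0.91 and the peptide exchanger subunit H2-DMb1 by 0.62. The rise was below 2-fold in each, and H2-Aa UMIs were frequent in Retnla-high cells too. H2-DMb2, a paralog of H2-DMb1, was at 2.22, 2.28 and 7.19 against 38.9, 27.6 and 23.2 CPM (log2 change -2.58), on 8 UMIs in Retnla-low and 50 in Retnla-high cells. Without replicate 1 H2-DMb2 (-2.15) was not called, nor H2-DMb1 (0.61) without replicate 2.

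Monocyte and dendritic cell genes were not higher in the Retnla-low cells. Of 14 monocyte genes 4 could be tested and 3 were called lower, and both dendritic cell genes tested, Batf3 and Cd209a, were lower (log2 changes -0.61 and -0.95), neither of them called without replicate 2 (-0.72 and -0.75), nor Batf3 without replicate 1 (-0.42). Ccr2, the receptor that recruits monocytes, was at 299.8, 251 and 193 against 411, 413 and 384 CPM (log2 change of -0.68 with an SE of 0.14, edgeR adjusted p = 0.002). Plac8 changed by -1.71. Fn1, fibronectin, was at 62.2, 38.8 and 50.4 against 476, 528 and 255 CPM (log2 change of -2.90 with an SE of 0.21, edgeR adjusted p = 3.2e-08) and at a log2 change of -2.59 under the same limits. Fibroblasts held 1195, 1092 and 1335 CPM of it.

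Among 14 transcription factor genes tested, 4 were called higher and 2 lower, with a median log2 change of 0.35. Irf8, a factor of macrophage and microglial identity, was at 315, 274 and 258 against 102, 101 and 65.6 CPM (log2 change of 1.71 with an SE of 0.16, edgeR adjusted p = 7.4e-07). Runx1, Mef2c and Spi1, the gene of PU.1, were higher by 1.35, 1.10 and 0.53, and Klf4 was among those lower, with a log2 change of -0.72. For Klf4 the 2 groups overlapped, since replicate 3 was highest in both (195, 180.3 and 477 against 305, 301 and 866 CPM). Of 10 genes tested in the list of the response to interleukin 4, 5 were lower and 3 higher, with a median of -0.47. The list holds parts of the pathway (Il4ra, Il13ra1 and Stat6) beside genes of the response. Among the latter Mgl2 was higher and Mrc1 was not called. The receptor chains Il4ra and Il13ra1 were higher in Retnla-low cells by 1.04 and 1.62, Stat6 was at 44.4, 29.7 and 50.4 against 29.6, 42.3 and 54.0 CPM and was not called (log2 change 0.02, edgeR adjusted p = 0.97), and Irf4, Ear2, Clec10a, Ccl24 and Klf4 were lower. Spi1 and Il4ra were not called without replicate 1 (0.49 and 0.99) or replicate 2 (0.53 and 1.01), and Irf4 was not called without replicate 1, 2 or 3 (-1.04, -1.12 and -0.99).

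Genes of lipid-associated macrophages went in both directions, with 4 of 12 tested called higher, 3 lower and a median of 0.26. Apoe, the lipid carrier, was at 31381, 32139 and 28274 against 13654, 13879.9 and 11886 CPM (log2 change of 1.26 with an SE of 0.07, edgeR adjusted p = 1.6e-09). Clec7a, a beta-glucan receptor, the tetraspanin Cd63 and Tyrobp, the adaptor of Trem2, were higher by 1.14, 0.89 and 0.51. Lgals3, a galectin, the lipase Lpl and the protease Ctsd were lower (log2 changes -0.98, -0.93 and -0.64), and for Lgals3 and Ctsd replicate 3 went the other way. Lgals3 and Ctsd were not called without replicate 1 (-0.64 and -0.25) or replicate 2 (-0.77 and -0.56), Lpl not without replicate 1 (-0.82), and Tyrobp not without replicate 2 (0.45).

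Of 9 complement genes tested, 3 were higher and 4 lower, with a median of -0.24. The receptors of the complement fragments C3a and C5a, C3ar1 and C5ar1, were higher by 1.16 and 0.94. Cfp, properdin, was at 222, 326 and 255 against 983, 889 and 1044 CPM (log2 change of -1.83 with an SE of 0.14, edgeR adjusted p = 8.4e-08), C4b changed by -2.18 and Itgam, a chain of complement receptor 3, by -1.04. C1qc rose by 0.35, and the third chain of C1q is not independent of the C1qa and C1qb counts that chose both groups. Of 12 genes of haem, iron and scavenging, 4 were higher and 2 lower, with log2 changes of the scavenger receptors Stab1 and Msr1, the metal transporter Slc11a1 and the receptor Axl at 1.03, 1.08, 0.86 and 0.72 and of the transferrin receptor Tfrc and haem oxygenase Hmox1 at -1.58 and -0.53. The median of that list was -0.05, and with DESeq2 1 was higher and 0 lower. Hmox1 was not called without replicate 1 (-0.53) or 2 (-0.37), Axl not without replicate 1, 2 or 3 (0.90, 0.82 and 0.48), Msr1 not without replicate 2 (0.96), and C1qc not without replicate 1 (0.41) or 2 (0.25). In the interferon list, with a median of -0.58, 0 of 7 were higher and 1, Ifi27l2a, was lower (704, 1036 and 835 against 1865, 2029 and 4065 CPM, log2 change -1.52).

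The largest differences outside the lists named further markers on each side. Lilra5, a leukocyte immunoglobulin-like receptor, was at 219.9, 146 and 134 CPM in Retnla-low and 3.70, 4.88 and 3.86 in Retnla-high cells (log2 change of 5.28 with an SE of 0.30, edgeR adjusted p = 5.1e-09). Cd72, a lectin best known from B cells, was at 193, 103 and 50.4 against 7.40, 6.503 and 15.4 CPM (log2 change 3.53), and Slc15a2, a peptide transporter, at 127, 79.9 and 125.9 against 3.70, 8.13 and 28.9 CPM (log2 change 3.06). Cd79b, a B cell receptor chain also known from microglia, was at 59.96, 63.9 and 45.6 against 3.70, 4.88 and 5.79 CPM (log2 change of 3.55 with an SE of 0.38, edgeR adjusted p = 3.8e-06), while Cd79a and Ms4a1 were at 0 in members.

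On the Retnla-high side Mucl1, a mucin-like gene, had 0 UMIs in Retnla-low cells and 257 in Retnla-high cells (270.2, 76.4 and 123.5 CPM), at least 88.2-fold lower against a floor of 3 counts over the group. Ear2, an eosinophil-associated ribonuclease with close paralogs, had 3 UMIs in Retnla-low and 395 in Retnla-high cells, a ratio of 135 (95% counting interval 46.0 to 659.8). The lysozyme Lyz1 was at 135, 77.6 and 318 against 1277, 1218 and 1312 CPM (log2 change of -2.86 with an SE of 0.23, edgeR adjusted p = 1.3e-07), and S100a4 at 107, 144 and 131 against 914, 883 and 585 CPM (log2 change -2.55). Gda, guanine deaminase, Fxyd2, a regulator of the sodium pump, and Gstp1, a glutathione transferase, had log2 changes of -2.64, -2.42 and -2.26. Of 5 proliferation genes tested Stmn1 and Top2a were higher in Retnla-low cells (log2 changes 1.43 and 1.83, list median 1.43), and neither was called without replicate 1 (1.17 and 1.44) or without replicate 3 (0.81 and 0.79). Among members Top2a was at 1198 CPM in the 12 cells of subgroup 4 below and 7.88 CPM in the others, and Stmn1 at 2251 against 56.4 CPM.

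**Figure D3:**
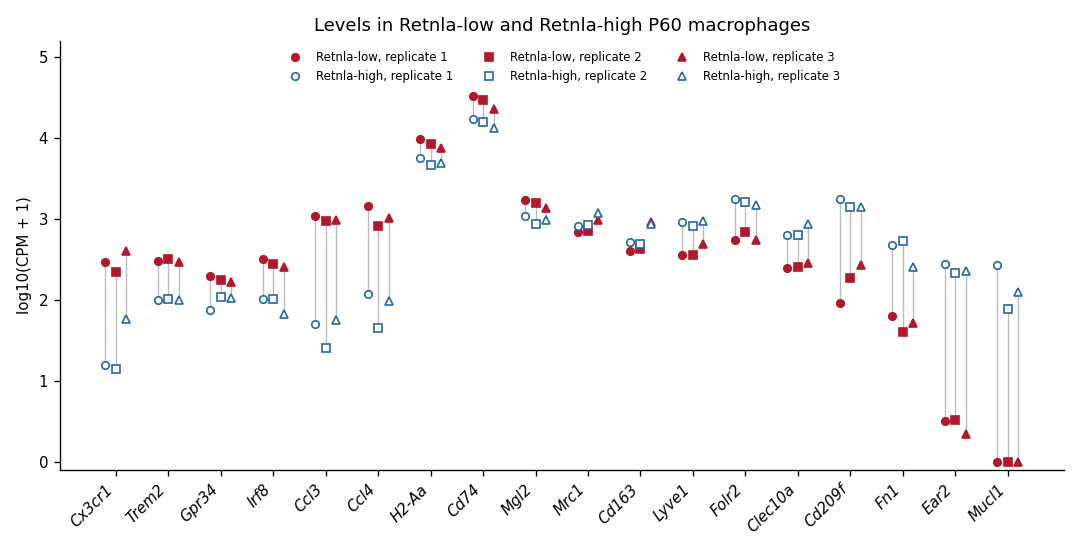
Level of 18 genes (y axis, log10 of CPM + 1) in the summed Retnla-low (filled red) and Retnla-high (open blue) cells of each P60 library, with a grey line joining the 2 values of a library and the marker shape giving the replicate. Cx3cr1, Ccl3 and Ccl4 lie higher in all 3 Retnla-low sums and Cd209f, Fn1, Ear2 and Mucl1 lower, while Mrc1 and Cd163 lie close together.

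Among the Retnla-low cells themselves, 66, 52 and 129 had a Cx3cr1 UMI and 56, 81 and 89 had none. Their sums were compared within the libraries, to see what varied with Cx3cr1. A cell without a UMI may still express the gene, and cells with a UMI were deeper, at 4000.0, 3330.3 and 4141 UMIs per cell against 3326, 3272 and 3368. Of 3219 genes tested, 125 were called, 55 higher (1.71%) and 70 lower (2.17%) in Cx3cr1-positive cells. The count depended on the fit: 8 were called without the block, 24 with DESeq2, 23 when cells were thinned to 1500 UMIs before the split, 54 without replicate 3 and 200 without replicate 1.

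In the summed counts, genes of epineurial and perivascular macrophages were lower in the Cx3cr1-positive members. Several of them were concentrated in 1 subgroup of 61 members, described below. Of 20 tested, 17 were called lower and 0 higher, with a median log2 change of -1.005 beside 0.02 over all genes. With DESeq2 13 were lower, after thinning 9 of 17, and without the block 6. Cd209f was at 0, 17.3 and 9.36 CPM in Cx3cr1-positive and 220.1, 298 and 734 in Cx3cr1-negative cells (log2 change of -5.83 with an SE of 0.31, edgeR adjusted p = 1.2e-16). Ccl8, a chemokine, was at 18.9, 5.77 and 3.74 against 53.7, 298 and 204 CPM (log2 change of -4.30 with an SE of 0.41, edgeR adjusted p = 6.9e-10), and Fcna at 53.0, 23.1 and 16.8 against 123.5, 272 and 384 CPM (log2 change of -3.26 with an SE of 0.30, edgeR adjusted p = 6.6e-10).

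Cd209d changed by -4.96 and Cd209b by -3.49, and Cd209g had 3 UMIs in Cx3cr1-positive and 79 in Cx3cr1-negative cells, a ratio of 34.1 (95% counting interval 11.2 to 169). Folr2 was at 402, 404 and 322 against 762, 872 and 964 CPM (log2 change of -1.21 with an SE of 0.13, edgeR adjusted p = 3.5e-08) and Lyve1 at 329.5, 208 and 277 against 397, 464 and 881 CPM (log2 change of -1.09 with an SE of 0.17, edgeR adjusted p = 4.0e-05). Mrc1, Cd163 and Pf4 were also lower in Cx3cr1-positive members (log2 changes -0.66, -0.73 and -0.47). After thinning Lyve1 was at a log2 change of -0.24 and no longer called (edgeR adjusted p = 0.82), nor was Pf4 (-0.27, edgeR adjusted p = 0.14), while Cd209f, Fcna, Folr2, Mrc1 and Cd163 were. Without replicate 3 Lyve1 was at -0.66 and not called. Mgl2 was not called (log2 change 0.05).

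Few endoneurial genes rose with Cx3cr1 inside the members. Of 13 tested, 2 were called higher and 0 lower, with a median of 0.12. Tgfbr1, 1 of those higher, changed by 1.31 and was not called without replicate 2 (1.09) or 3 (1.41). Trem2 was at 269, 346 and 326 against 338, 309 and 247 CPM and was not called (log2 change 0.14, edgeR adjusted p = 0.74). Gpr34, Fcrls and P2ry12 were not called either (log2 changes 0.09, 0.12 and -0.44).

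Of 6 MHC class II genes 4 were higher, by 0.32 for H2-Aa to 0.40 for H2-Eb1, and none of them was called without replicate 3 (0.15 to 0.22), with DESeq2, without the block or after thinning (0.12 to 0.23). Without replicate 2 H2-Aa and Cd74 were not called (0.38 and 0.34). Ccl4 (1799, 1484 and 1279 against 939.5, 377 and 617 CPM, log2 change 1.30) and Ccl3 (log2 change 0.71) were higher, and after thinning Ccl3 was at 0.26 and not called (edgeR adjusted p = 0.58). Ccr2 was higher by 0.72, but was not called without replicate 2 (0.63) or 3 (0.61). The largest rises were those of Stmn1, a tubulin regulator of dividing cells, Tnf, Id2, Ccnd2 and Cxcl1, at 1.82, 1.72, 1.49, 1.37 and 1.35. Stmn1 was at 2251 CPM in the 12 cells of subgroup 4 below and 56.4 CPM in the other members. Of the 17 genes of the dissociation response 3 were higher and 0 lower, with a median of 0.17, and without replicate 1, 2 or 3 the number higher was 6, 0 and 0. Tnf was not called without replicate 3 (1.17), and after thinning Stmn1 and Tnf turned to -0.13 and -0.07 (edgeR adjusted p = 0.98 and 0.99).

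The 473 members fell into 6 subgroups when clustered by their variable genes, described here by their leading genes without a test. Subgroup 0 (195 cells) was led by Cxcl1, Kdm6b, Cxcl2 and Il1b and by Atf3, found in 83.1% of its cells, and 11 of the 17 genes of the dissociation response were among its markers. It held 25.4%, 25.6% and 59.6% of the members of replicates 1, 2 and 3. Subgroup 1 (167 cells) was led by Crbn, at 2.37 times its level in the other members, and held 53.3%, 44.4% and 19.7%. Replicate 3 thus held more of the first and less of the second than the other libraries.

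Subgroup 3 (61 cells, 7.38%, 14.3% and 15.1% of the members) was led by Cd209f, Cd209d, Ccl8, Cd209g and Fcna, and 18 of the 20 epineurial and perivascular genes marked it. Without thinning Lyve1 was found in 95.1% of its cells, against 36.4% of subgroup 0 and 45.5% of subgroup 1. A Cx3cr1 UMI was found in 13.1% of its cells, against 64.1% in subgroup 0 and 49.7% in subgroup 1, and an H2-Aa UMI in 45.9%, against 95.4% and 96.4%. These cells were Retnla-low by the count and carried the lectins of the other group. Cd209f was at 1538 CPM in them and 4.01 CPM in the other members, and Cd209d at 724 against 3.34 CPM. Ccl8 was at 684 against 4.01 CPM and Fcna at 881 against 27.4 CPM. How far these 61 cells alone made the differences of the Cx3cr1 split was not tested.

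Subgroup 2 (29 cells) was led by the interferon-induced genes Isg15, Ifit3 and Irf7 and held 9.02%, 11.3% and 1.38% of the members. Subgroup 4 (12 cells, in all 3 libraries) was led by Ube2c, Top2a and Birc5, and all 12 proliferation genes marked it. Without thinning 75.0% of its cells had a Cx3cr1 UMI, but they were deeper, with a median of 5717.5 UMIs against 3896 and 3115 in subgroups 0 and 1. By level its Cx3cr1 was at 289 CPM, against 397 and 317 CPM in those subgroups. Subgroup 5 (9 cells) was led by Ccl21a, Nr4a2, Tagln and Acta2 and was marked by 5 mural, 3 endothelial and 3 fibroblast genes, so it was not named and its cells carried transcripts of several types. No doublet caller was run, and when cells with over 2 UMIs of fibroblast, Schwann cell, endothelial and mural markers were left out, 43 members and 40 Retnla-high cells remained, too few for a comparison of most genes.

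**Figure D4:**
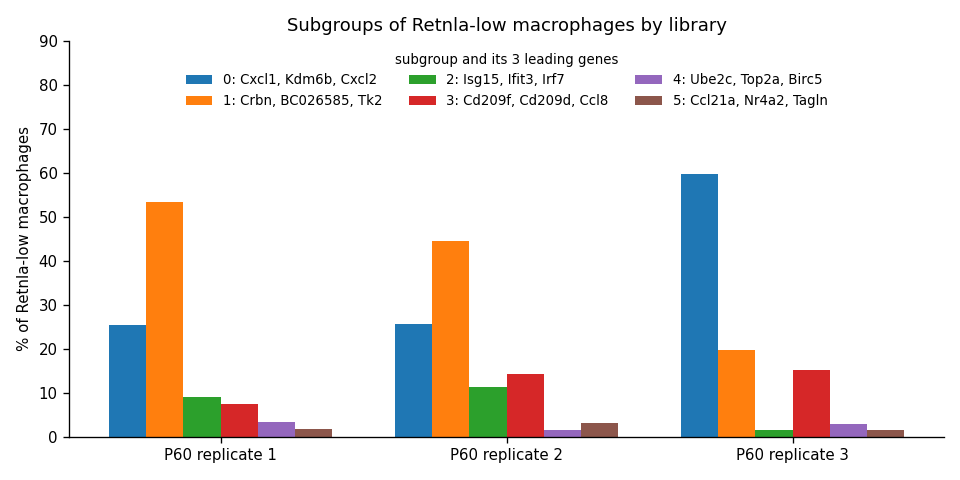
Share of the Retnla-low macrophages of each P60 library (y axis, %) in each of 6 subgroups (bar colours, with the 3 leading genes in the key). Subgroup 0 holds 59.6% of the members of replicate 3 and 25.4% and 25.6% in replicates 1 and 2, and subgroup 3 holds 7.38% to 15.1%.

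The Retnla-low cells of P60 were then set beside P1 cells under the same limits (242, 278 and 245 cells, 6.92%, 6.62% and 6.06% of kept P1 cells), all of which had 0 Retnla UMIs. This asked how far the adult cells resembled macrophages of the newborn nerve. Age and any batch of libraries cannot be told apart here, as each age had its own libraries. At P1 the limit on Retnla left out no cell, while at P60 it left out the Retnla-high cells. P1 cells were deeper, with medians of 7425, 6552 and 7526 UMIs. Of 8344 genes tested with edgeR, 2730 were called, 1396 higher at P60 (16.7%) and 1334 lower (16.0%). With the threshold on low counts removed, 1510 were higher and 1896 lower.

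Cx3cr1 and Trem2 were both lower in the adult cells than in P1 macrophages. Cx3cr1 was at 293, 221 and 402 CPM at P60 and 506, 467 and 457 at P1 (log2 change of -0.51 with an SE of 0.17, edgeR adjusted p = 0.037), a difference no longer called with DESeq2 (adjusted p = 0.060) or when any 1 library other than P60 replicate 3 was left out (-0.36 to -0.55). After thinning, 50.8%, 48.9% and 50.6% of P1 cells had a Cx3cr1 UMI. Trem2 was at 298, 324 and 297 against 720.0, 784 and 790.0 CPM (log2 change of -1.21 with an SE of 0.11, edgeR adjusted p = 6.2e-06), with no overlap between the ages, as for 46.0% of the genes tested. Of 16 endoneurial genes tested, 4 were called higher and 5 lower at P60, with a median log2 change of -0.08, and with DESeq2 or without P1 replicate 1 or 2 the number lower was 3.

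Tmem119, a surface protein of mature microglia, was at 4.44, 13.7 and 5.996 CPM at P60 against 78.8, 72.2 and 75.0 at P1 (log2 change of -3.19 with an SE of 0.29, edgeR adjusted p = 4.0e-06). P2ry12 and Olfml3 were lower, with log2 changes of -0.70 and -1.54, the former not called without P1 replicate 1 (-0.68), P1 replicate 2 (-0.63) or P60 replicate 3 (-0.39). Siglech went the other way, at 99.9, 86.7 and 92.3 against 6.22, 6.70 and 2.40 CPM (log2 change of 4.28 with an SE of 0.27, edgeR adjusted p = 1.5e-07), as did Cd81 (2.95), Selplg (1.24) and Mef2c (0.72). Gpr34 and Fcrls were not called.

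MHC class II genes had the largest median change of the lists between the ages. All 7 tested were called higher at P60, with a median log2 change of 6.90, and 7 or 8 were called with DESeq2 or when any 1 library was left out. H2-Aa was at 9803, 8388 and 7527 CPM at P60 and 54.4, 84.0 and 30.3 at P1 (log2 change of 7.36 with an SE of 0.29, edgeR adjusted p = 1.6e-09). H2-Eb1, H2-Ab1 and Cd74 rose by 7.37, 7.20 and 6.90. These levels were not particular to the members. The 10 genes of the list summed to 27240 to 33380 CPM in Retnla-high and 43955 to 61465 CPM in Retnla-low cells. At P1 they summed to 387 to 741 CPM. Retnla-high cells were not tested against P1. Ciita, the master activator of these genes, had 1 UMI in P1 cells and 38 in P60 cells, a ratio of 131 (95% counting interval 22.2 to 5319).

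Other leading rises were those of Clec4b1, a lectin, at 255, 244 and 245 against 1.04, 2.58 and 1.44 CPM (log2 change of 7.23 with an SE of 0.23, edgeR adjusted p = 3.3e-10), and the matrix protease Mmp9, at 139.9, 146 and 171 against 1.56, 1.03 and 0.961 CPM (log2 change of 7.03 with an SE of 0.25, edgeR adjusted p = 8.9e-10). Pla2g2d, a secreted phospholipase, had 240 UMIs at P60 and 1 at P1, a ratio of 829 (95% counting interval 147 to 32879.6). Lyz1 rose by 5.75 and Ccr2 by 1.74.

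Genes of epineurial and perivascular macrophages were also higher in the adult Retnla-low cells than at P1, with 16 of 20 called higher, 1 lower and a median of 1.29. Mgl2 was at 1699, 1563 and 1345 against 33.2, 40.2 and 39.4 CPM (log2 change of 5.45 with an SE of 0.15, edgeR adjusted p = 7.1e-11) and Cd163 at 404, 429 and 913 against 85.0, 53.1 and 53.8 CPM (log2 change of 3.32 with an SE of 0.30, edgeR adjusted p = 4.0e-06), with replicate 3 the highest of the P60 libraries. Folr2, Mrc1 and Clec10a rose by 1.16, 0.93 and 1.60. Cd209d and Cd209g had 0 UMIs at P1 and 166 and 82 at P60, at least 191-fold and 94.4-fold higher against a floor of 3 counts over the group. Lyve1 was not called, at 358, 363 and 494 against 349, 407 and 398 CPM (log2 change 0.19, edgeR adjusted p = 0.33), and Fcna was lower at P60 (log2 change -0.96), though not called after thinning (-0.63, edgeR adjusted p = 0.085).

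Proliferation genes were lower in the adult members. Of 12 proliferation genes, 11 were called lower at P60 and 0 higher, with a median of -1.88 and a summed level of 128 to 508 CPM against 1433 to 1922 CPM at P1. Pclaf, a replication factor, was at 22.2, 2.28 and 16.8 against 145, 148 and 178 CPM (log2 change of -3.33 with an SE of 0.30, edgeR adjusted p = 4.2e-06), Cdk1 changed by -2.72 and Mki67 by -1.77. Genes of haem and iron handling split, with 5 of 13 higher and 5 lower: Hmox1, haem oxygenase, was at 284, 256 and 661 against 3333, 3356 and 4393 CPM (log2 change of -3.06 with an SE of 0.28, edgeR adjusted p = 4.6e-06), and the iron exporter Slc40a1 and the ferritin chain Ftl1 were lower, with log2 changes of -2.24 and -1.04. Between 2 and 3 were higher with DESeq2, after thinning, or without any P1 library or P60 replicate 3. Summed levels of 4 erythroid markers were 17.8, 22.8 and 0 CPM in P60 members and 104, 11.9 and 741 CPM at P1, so the ages overlapped. Hbb-bs, a haemoglobin chain and the 1 marker tested, was lower at P60 (-4.58), but was not called with DESeq2, without P1 replicate 3 (-2.14) or without any 1 P60 library (-3.69 to -5.50). The part of these markers in the haem and iron changes was not tested.

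Other large log2 changes were in the lectins Clec4d (-4.74) and Clec4n (-2.64) and in Syngr1 (-3.14). Col1a1 (-3.58), a collagen of fibroblasts, was lower as well. Summed markers of fibroblasts and Schwann cells stood at 1059 to 1655 and 325 to 466 CPM in P60 members and 1218 to 1729 and 538 to 684 CPM in P1 cells, and their part in the result was not tested. The 3 mural and 3 endothelial markers tested were all higher at P60, with mural markers summing to 75.5 to 228 CPM against 12.4 to 19.7 CPM at P1. Genes of the dissociation response were higher at P60 in 13 of 17 and lower in 0. Of 9 complement genes 8 were higher, of 9 genes of the interleukin 4 response 7, of 14 transcription factors 8 with 1 lower, and of 18 chemokine genes 8 with 3 lower.

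**Figure D5:**
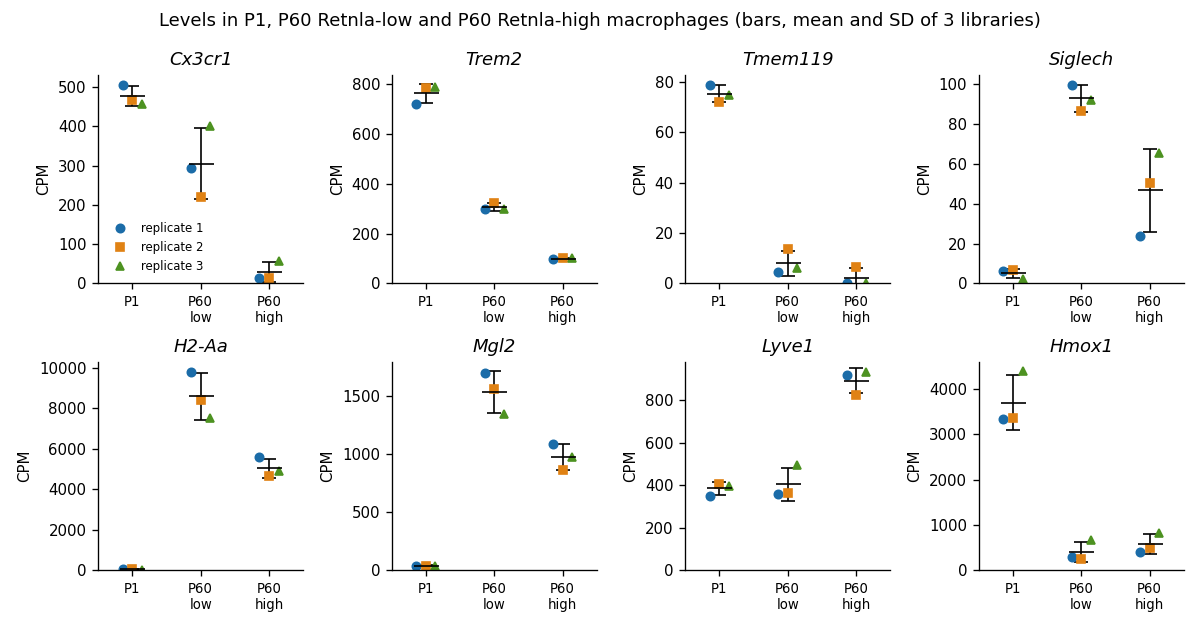
Level of 8 genes (y axis, CPM from 0) in P1 cells under the members' limits, P60 Retnla-low and P60 Retnla-high cells (x axis), with 1 point per library and the bars giving mean and SD of 3 libraries. Trem2 lies at 720 to 790 CPM at P1, 297 to 324 CPM in Retnla-low and 98.1 to 101 CPM in Retnla-high cells. H2-Aa lies at 30.3 to 84.0 CPM at P1 and 7527 to 9803 CPM in Retnla-low cells, with Retnla-high cells in between.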

How the data were processed

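Single-cell RNA-seq counts of 3 P1 and 3 P60 libraries were analysed. The deposited matrices hold raw UMI counts per gene and barcode, which the authors made with Cell Ranger 2.0.2 against GRCm38.p5 according to the submitters' processing notes; the study's methods name a human build, while all gene IDs are of mouse. Counts were not normalized before deposit, and whether counting used strand is not given in the sources used here, so overlapping genes and near-identical copies (the Cd209 family, H2 genes, Ear2, Lyz1 and Ccl21a) may share reads. Kept P60 cells had library medians of 5561, 4982.5 and 3627 UMIs, and kept P1 cells 6794, 6077 and 6840.0.

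The cells and the gene lists were chosen with earlier results of these data known, and some genes that the lists or the naming rule hold are counted but not reported here. Counts were summed over the cells of each group in each library, genes with low counts were removed with filterByExpr, and sums were compared with edgeR 4.0.16 in R 4.3.3 (TMM scaling, quasi-likelihood test, Benjamini-Hochberg adjustment over all genes tested, threshold 0.05). SE is the log2 change divided by the root of F. CPM is counts per 1000000 UMIs of a sum. The genes of the limits, and Cx3cr1 where it split the members, were left out of the tests. Retnla-low and Retnla-high cells, and Cx3cr1-positive and Cx3cr1-negative cells, came from the same suspensions, so library was a block (deviations of the paired sums correlated at r = 0.24, 0.19 and 0.50, and at 0.18, 0.20 and 0.55). The P1 comparison had no block. With the block, p-values measure how far the difference within a library varied between the libraries. In the P1 comparison they measure the spread between libraries of pooled animals.

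Named genes were those of the lists and, among called genes with the same direction in all libraries and a mean of at least 50 CPM, the 12, 8 and 5 with the largest change in each direction in the Retnla, age and Cx3cr1 comparisons. Intervals on shares are exact binomial (95%, scipy 1.17.1) and cover counting error only. Subgroups came from scanpy 1.11.5 (2000 variable genes, 10 components, 15 neighbours, resolution 0.5), with folds on CPM plus 10. No doublet caller was run. The fits were tested on simulated data at the size of each comparison: 4-fold changes were recovered in 100.00%, 95.00% and 98.98% of genes of the Retnla, age and Cx3cr1 comparisons (5265, 8093 and 3010 genes) and 2-fold changes in 60.00%, 58.76% and 60.64%. False calls were 2, 5 and 6. The simulation gave every gene the same set dispersion and had no library effect, so these rates need not hold for the real data. Alternatives were DESeq2 1.42.0, its size factors in edgeR, no filter, other limits on cells, thinning, the block and leaving out each library. Coordinates are from GENCODE M21 by Ensembl ID (41435 of 41605 IDs found).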

Additional observations from a re-analysis of the deposited data

How the results depend on the processing

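The directions of the changes in Cx3cr1, Trem2, Lyve1 and Folr2 between Retnla-low and Retnla-high cells, and their calls, held under every setting in which these genes were tested other than the limit on other cell types' markers, where few could be tested. How many genes were called depended on the setting. Between Retnla-low and Retnla-high cells 344 were called with DESeq2, 530 (of 2670 tested) with cells thinned to 1500 UMIs, and 31 (of 327) when cells with over 2 UMIs of other types' markers were left out, which left 2 to 33 cells a sum. Leaving out 1 library gave 414 to 914. Of these, 344, 481, 31 and, without replicates 1, 2 and 3, 470, 394 and 758 were among the 1055. Against P1 cells 45 were called under the limit on other markers, 1103 when thinned and 1974 to 2761 without 1 library, beside 2730. In the Cx3cr1 split 24 were called with DESeq2, 23 when thinned, 54 to 200 without 1 library, and 0 of 142 tested under the limit on other markers (edgeR, 4 at an unadjusted p under 0.05), beside 125. DESeq2 was not run under that limit.

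Without the library block, which stands for the pairing of sums from the same suspension, 441 and 8 genes were called in the Retnla and Cx3cr1 comparisons. In the age comparison same-numbered libraries share only a number (r = 0.03, 0.04 and 0.03), and a replicate block gave 2438 calls.

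Members were 2.37% of P60 cells when no Retnla UMI was allowed and 3.23% to 4.16% without 1 library. The Cx3cr1 share was 50.8% with no thinning, 20.8% at 1000 and 42.0% at 2500 UMIs, and 28.0% to 33.8% without 1 library.

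Directions reversed in 24 cases, for small changes other than those of Sparc, Ccl4, Stmn1, Tnf and, against P1, Mef2c. Low against high, Sparc was at 0.23 under the same limits and 0.19 against all gate cells from 5 Retnla UMIs, and Fcrls at -0.12 under the limit on other markers. Without 1 library Cd163 ranged from -0.25 to 0.022 and Stat6 from -0.19 to 0.20. Against P1, Gpr34 was at 0.0100 thinned, Fcrls at -0.12 unfiltered and, under the limit on other markers, -0.78, where Mef2c was at -0.030. Without 1 library Gpr34 ranged there from -0.15 to 0.020, Fcrls from -0.080 to 0.077 and Lyve1 from -0.0020 to 0.25. In the Cx3cr1 split Ccl4 and Mgl2 were at -1.08 and -0.66 under the limit on other markers, and Stmn1, Tnf and Mgl2 at -0.13, -0.074 and -0.054 thinned. Without 1 library Trem2 ranged from -0.070 to 0.34, Mgl2 from -0.13 to 0.17, Gpr34 from -0.21 to 0.35 and Fcrls from -0.068 to 0.22. The causes were not tested.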
